A study of Mus musculus with 19 samples.

Results

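Integrin chains of thymocytes were followed at the level of RNA and of surface protein in single cells of the mouse thymus, measured by CITE-seq, which counts the RNA of each cell together with DNA tags carried by antibodies bound to its surface. The chains were chosen by name: the alpha chains Itgae, Itgal, Itga4 and Itga6 and the beta chains Itgb7, Itgb2 and Itgb1, which are 7 of the 28692 genes in the files. Of the 111 antibodies of the panel, 6 bind one of them: CD103 (Itgae), integrinb7 (Itgb7), CD11a (Itgal), CD49d (Itga4), CD49f (Itga6) and CD29 (Itgb1). No antibody of the panel binds Itgb2.

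Integrins are adhesion receptors made of one alpha and one beta chain, and a chain reaches the cell surface only with a partner. AlphaE pairs with beta7 to bind E-cadherin on epithelial cells, alphaL pairs with beta2 as LFA-1 to bind ICAM molecules, and alpha4 and alpha6 pair with beta1 (alpha4 also with beta7) to bind VCAM-1, fibronectin or laminin. In the thymus they hold developing T cells to epithelium and matrix while double-positive (DP) cells are selected and become CD4 or CD8 single-positive (SP) cells.

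The 17 mice were females aged 4 to 8 weeks, run on 19 lanes in 3 experiments. Wild-type C57BL/6 mice numbered 5, of which mice 1, 2 and 3 were sorted for CD5+TCRβ+ cells and mice 4 and 5 were unsorted, with 2 lanes each. Each other genotype had 2 mice. The CD4-fated genotypes were AND (a class II-restricted T cell receptor transgene, Rag1-deficient), OT-II (a class II-restricted transgene) and MHCI-/- (B2m-/-, sorted for CD5+TCRβ+ cells). The CD8-fated genotypes were F5 (a class I-restricted transgene under CD2 control elements, Rag1-deficient), OT-I (a class I-restricted transgene) and MHCII-/- (H2-Ab1-/-, sorted in the same way). The MHC-deficient mice have a diverse receptor repertoire. Only the AND and F5 thymocytes lacked Rag1, so OT-I and OT-II thymocytes could rearrange receptor genes of their own beside the transgene. The third experiment, done at another site, held wild-type mice 4 and 5 and all mice of the OT genotypes, so for these genotypes the genotype, the experiment and the site cannot be told apart.

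Of 85389 barcodes, 68983 cells were kept. Levels of RNA are UMIs (unique molecular identifiers, one for each captured molecule) summed over the cells of a mouse and scaled to a common total in each sum (CPM), and levels of antibodies are UMIs per 10000 antibody UMIs of the same cells. In such sums, fewer cells of a type and less RNA per cell cannot be told apart. Cells were clustered on RNA without the integrin genes and named by marker genes as "-like" classes. Cells between signaled DP-like and mature SP-like were put in a maturation order built from 12 genes, none of them an integrin, and the order was divided into 4 bins of equal cell number, numbered 1 (earliest) to 4. Signals of CD4 and CD8a antibodies, differing by a ratio of 4 or more, set the CD4 and CD8 gates. In bins 3 and 4 of the CD4-fated and CD8-fated mice, cells in the gate of the other lineage were left out. Bins 1 and 2 kept the cells of both gates, so a change from bin 1 to bin 4 also spans this selection. With those cells kept, the calls of Itgae, CD103 and integrinb7 between the lineages in bins 3 and 4 held. Differences are log2 fold changes of edgeR's quasi-likelihood test with TMM scaling, over mice, with Benjamini-Hochberg adjustment over all features tested and a threshold of 0.05. In the fit of the 12 lineage-restricted mice each CD8-fated genotype was set beside a CD4-fated one as a pair: F5 beside AND, MHCII-/- beside MHCI-/- and OT-I beside OT-II.

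The labels of the MHC-deficient mice held in the data, and every mouse had T cell transcripts. The transgenes, the lack of Rag1 and the sorting were not checked. In the MHCI-/- mice B2m was at 45.9 to 47.8 CPM, against 405 to 1250 CPM in the other 15, the I-A/I-E antibody was at 2.22 to 2.25 per 10000 in the MHCII-/- mice and at 23.8 to 122 elsewhere, and Cd3e, a T cell receptor component, was at 426 to 1023 CPM in all 17. Median depth ran from 1495 to 7176 RNA UMIs per cell over the lanes and was lowest in wild-type mouse 5, OT-II mouse 2, wild-type mouse 4 and OT-I mouse 2. AND mouse 2 had the fewest antibody UMIs, and 42.1% of its barcodes passed the filters. Pairs of lanes shared 0 to 35 barcodes. Transcripts of B cells, 9 genes led by Ighm, summed to 287 to 482 CPM in bin 4 of CD8-fated mice and to 109 to 160 CPM in that of CD4-fated mice, and to 260 to 370 against 91.9 to 191 CPM in the CD8 and CD4 gates of wild-type mice. The 12 myeloid genes summed to 122 to 267 against 134 to 304 CPM in bin 4, and the 7 erythrocyte genes reached 1858 CPM in CD8-fated and 54.6 CPM in CD4-fated mice. The 7 epithelial genes reached at most 15.1 CPM. The part of these transcripts in the lineage differences below was not tested.

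Itgae and its antibody CD103 marked the mature CD8 lineage. Itgae (chr11:73090505-73147449, GRCm38) encodes alphaE. In bin 4 it was at 27.7 and 45.4 CPM in F5, 156 and 136 in MHCII-/- and 99.6 and 145 in OT-I mice, against 3.77 and 0.281 in AND, 0.553 and 0.319 in MHCI-/- and 4.42 and 7.44 in OT-II mice. Every CD8-fated mouse was above every CD4-fated mouse, with F5 the lowest of the CD8-fated genotypes. The difference was 5.37 (SE 0.455), or 41.3-fold, on 1551 against 26 UMIs (edgeR, adjusted p = 1.64e-06). In that bin CD103 was at 81.2 and 68.4 per 10000 in F5, 219 and 206 in MHCII-/- and 96.0 and 83.7 in OT-I mice, against 47.9 and 60.5 in AND, 30.7 and 32.6 in MHCI-/- and 6.98 and 9.80 in OT-II mice. These groups did not overlap either, and the difference was 2.34 (SE 0.341), or 5.07-fold (edgeR, adjusted p = 7.61e-05). Of the 7 chains, 2 passed the test in bin 4, 1 higher and 1 lower in CD8-fated mice, where 7.32% of 8581 genes did, with a median log2 fold change of the chains of 0.13. Of the 6 antibodies 2 passed, both higher, where 10.8% of the panel did in either direction and 6.31% were higher. Scaling to library size moved the panel median in bin 4 from -0.09 to -0.26 and gave 2.25 for CD103 and 2.53 for integrinb7, with both calls kept.

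**Figure D1:**
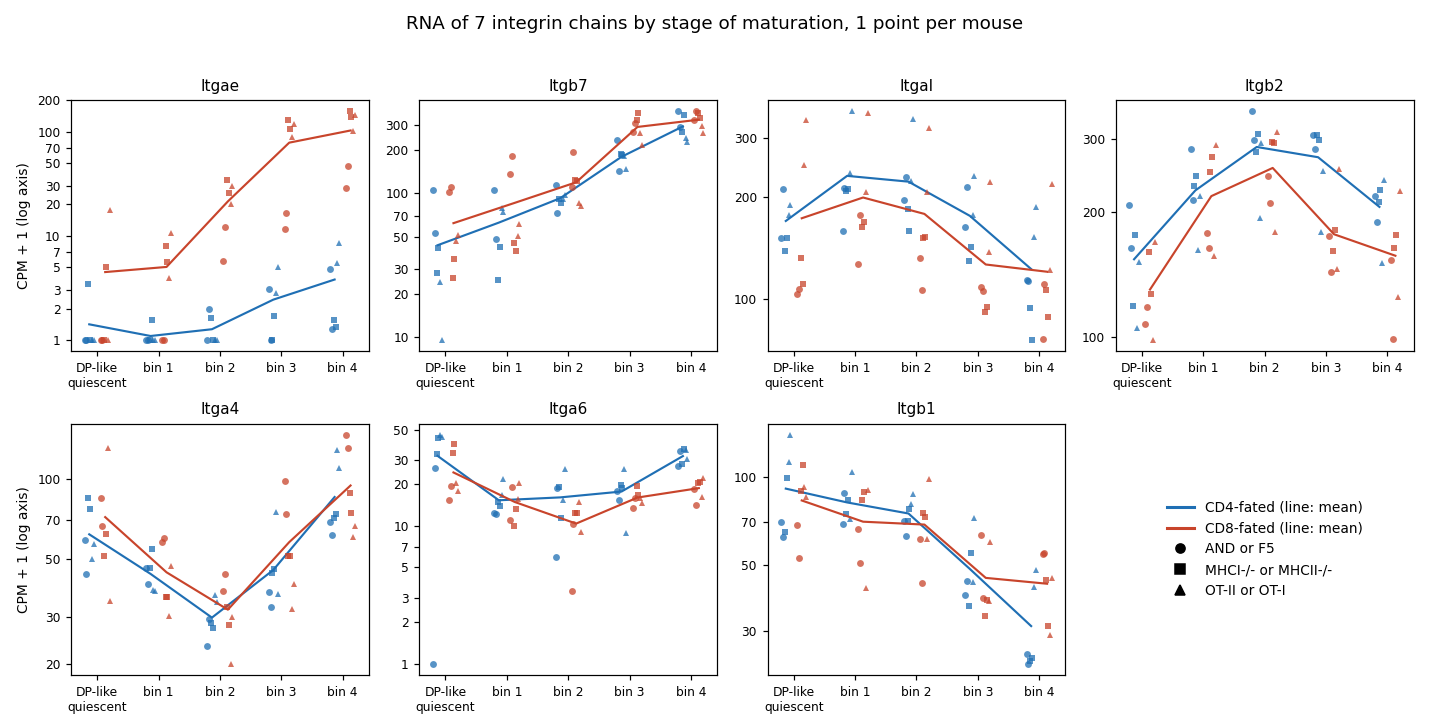
RNA levels of the 7 chains, in CPM of the UMIs summed per mouse (1 added, log axis), from quiescent DP-like cells through the 4 bins of the maturation order. Each point is 1 of 6 CD4-fated or 6 CD8-fated mice and each line the mean of a lineage. Itgae rises in the CD8-fated mice, to 27.7 to 156 CPM in bin 4, and stays at or below 7.44 CPM in the CD4-fated mice, while Itgb7 rises in both.

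Itgae had diverged between the lineages by bin 2 of the order. In quiescent DP-like cells it was at 0 to 2.46 CPM in CD4-fated and 0 to 16.9 CPM in CD8-fated mice, with a median of 0 in both groups. In bin 1 its range was 0 to 0.539 CPM (median 0) in CD4-fated and 0 to 9.66 CPM (median 3.74) in CD8-fated mice, which still overlapped. Both F5 mice were at 0 CPM there. By bin 2 every CD8-fated mouse, at 4.74 to 33.4 CPM (median 21.9), was above every CD4-fated mouse, at 0 to 0.984 CPM (median 0). In the CD8 gate of that bin Itgae was at 64.1 to 88.3 CPM in MHCII-/- and OT-I and 9.21 and 27.8 CPM in F5 mice. The CD4 gate of the MHCII-/- and OT-I mice was at 0 to 8.87 CPM. With 416 against 2 UMIs, Itgae was below the low-count filter there. In a fit of all genes without that filter it was called as higher in CD8-fated mice in bin 2 (edgeR, adjusted p = 3.61e-33) and in bin 1, on 37 against 1 UMIs (edgeR, adjusted p = 0.00283), and not in quiescent DP-like cells, on 10 against 1 UMIs (edgeR, adjusted p = 0.944), where 3.38%, 0.572% and 0.449% of genes were called. In bin 3 the CD8-fated mice were at 10.6 to 128 CPM (median 96.0) and the CD4-fated mice at 0 to 3.97 CPM (median 1.27), a difference of 6.37 (SE 0.463; edgeR, adjusted p = 6.3e-07). In bin 2 the fit without the filter gave 6.09 (SE 0.484), alike in size and SE but with a far smaller p-value. The p-values of the 2 fits are therefore not comparable, and the bin 1 call rests on 1 UMI in the CD4-fated mice. Within the CD8-fated mice Itgae rose from bin 1 to bin 4 by 5.09 (SE 0.171; edgeR, adjusted p = 7.76e-13), or by 3.16 when cells were ordered by their own score without averaging over neighbours. With the filter, none of the other 6 chains passed between the lineages in quiescent DP-like cells (0% of genes did), in bin 1 (0.0731%) or in bin 2 (2.19%).

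At the surface CD103 overlapped between the lineages in bins 1, 2 and 3 and not in bin 4. In bin 1 it was at 8.44 to 49.9 per 10000 (median 30.5) in CD4-fated and at 5.44 to 34.9 (median 33.7) in CD8-fated mice, and no integrin antibody passed the test there or in quiescent DP-like cells (0% of the panel in both). In bin 2 it was at 7.08 to 59.4 (median 29.6) against 11.9 to 54.1 (median 46.5), groups that overlapped fully across genotypes. The difference within the pairs of genotypes was 0.77 (SE 0.186; edgeR, adjusted p = 0.0281), and CD103 and integrinb7 were the 2 of 6 antibodies called, against 3.6% of the panel. This call was lost with scaling to library size (0.55), with mice of one number as a block (0.77, adjusted p = 0.0863), without the pairs of genotypes in the fit (0.67), without the third experiment (0.60), and without F5 mouse 1, MHCI-/- mouse 1, MHCII-/- mouse 2, OT-I mouse 1, OT-II mouse 1 or OT-II mouse 2 (0.66 to 0.80, adjusted p 0.0534 to 0.0979). In bin 3 it was at 59.5 to 206 (median 76.8) in CD8-fated and 7.12 to 60.1 (median 31.9) in CD4-fated mice, a difference of 2.20 (SE 0.374; edgeR, adjusted p = 0.000354) in which 2 of 6 antibodies passed, both higher, against 10.8% of the panel in either direction and 6.31% higher. In CD8-fated mice CD103 rose from bin 1 to bin 4 by 2.28 (SE 0.474; edgeR, adjusted p = 0.0109). In CD4-fated mice the change was 0.22 (adjusted p = 0.13).

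CD103 of CD4-lineage cells was lowest in mice of the third experiment. In bin 4 the 2 OT-II mice were at 6.98 and 9.80 per 10000, near the panel median of wild-type mice (8.36 to 11.4), and the other 4 CD4-fated mice at 30.7 to 60.5, and in the CD4 gate of wild-type mice the third experiment was at 11.7 and 11.4 and the others at 30.1 to 39.1. Genotype or sorting changed with the experiment in both cases and cannot be told apart from it. The lineage difference of CD103 was 1.24 (SE 0.353) in AND and F5, 2.39 (SE 0.366) in the MHC-deficient and 3.40 (SE 0.383) in the OT mice, and differed between these pairs (edgeR, adjusted p = 0.00799; 16.2% of the panel differed). With scaling to library size it was 0.46 (adjusted p = 0.106), 2.75 and 3.42, as the panel median moved from -0.06 to -0.945 in AND and F5 and from -0.14 to 0.21 in the MHC-deficient mice. That of Itgae was 3.96, 8.36 and 4.57 in the same order and was not called as different (edgeR, adjusted p = 0.277; 0.431% of genes differed).

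**Figure D2:**
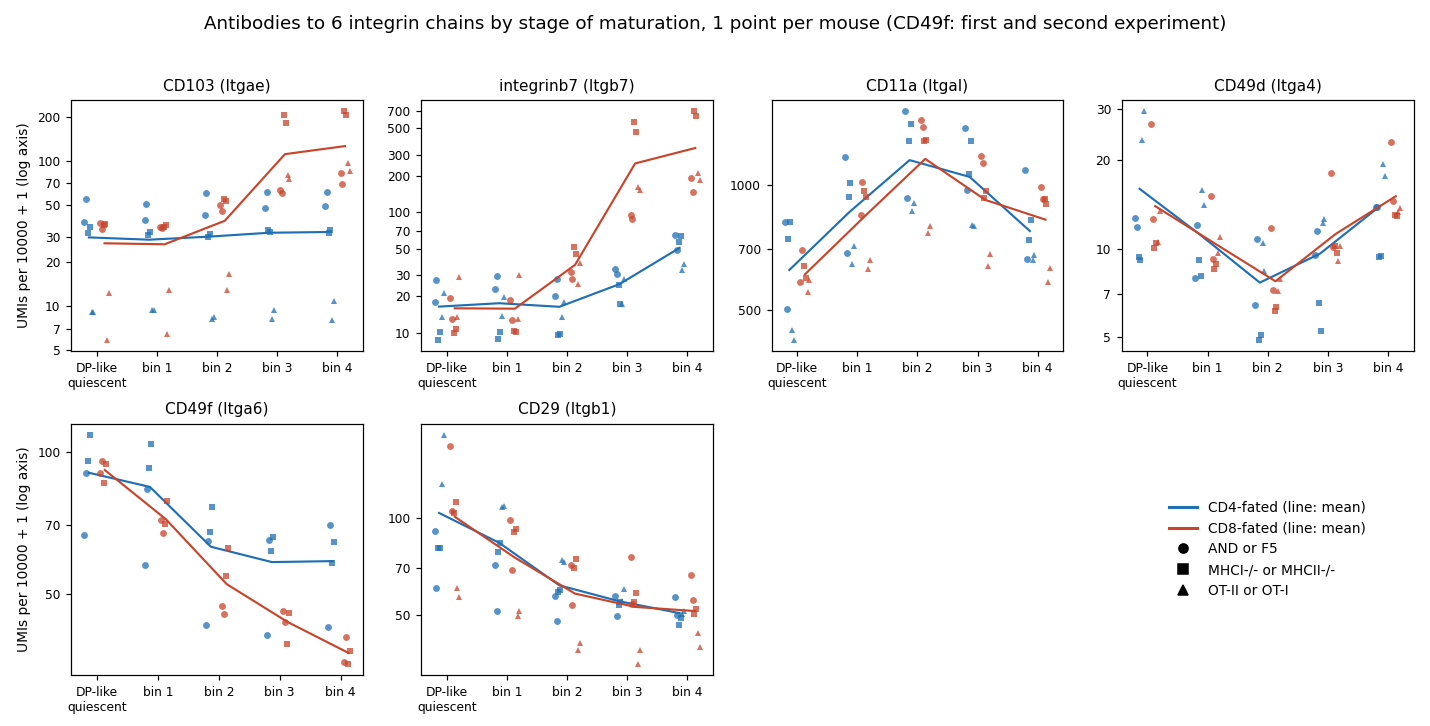
Surface levels of the 6 integrin antibodies, in UMIs per 10000 antibody UMIs (1 added, log axis), over the same stages and mice; CD49f is drawn for the first and second experiments alone. Points are mice and lines the mean of a lineage, and the lines of CD103 and integrinb7 part from bin 2 on, with mice at 68.4 to 219 and 145 to 690 in the CD8-fated group in bin 4.

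Both lineages of 1 mouse, with its lane, depth and staining shared, gave the same direction. In bin 4 of the wild-type mice 1 to 5, Itgae was at 203, 184, 136, 168 and 210 CPM in the CD8 gate and at 0, 0.98, 2.53, 1.57 and 0 CPM in the CD4 gate. It was higher in the CD8 gate in 5 of 5 mice, by 6.90 (SE 0.216), on 653 against 8 UMIs (edgeR, adjusted p = 2.24e-30). CD103 was at 232, 198, 193, 123 and 118 per 10000 in the CD8 gate and 37.4, 30.1, 39.1, 11.7 and 11.4 in the CD4 gate, a difference of 2.75 (SE 0.184; edgeR, adjusted p = 1.2e-09). Of the 7 chains 5 passed, 3 higher and 2 lower in the CD8 gate, with 19.7% of 6487 genes called, and of the 6 antibodies 3 passed, 2 higher and 1 lower, with 20.2% of the panel called. The lower one was CD49f, which was all but uncounted in wild-type mice 4 and 5, so its call rests on mice 1, 2 and 3. CD8-fated mice also held some CD4-gate cells, and there Itgae was low: in bin 3 it was at 0 CPM in both MHCII-/- mice and at 1.05 and 7.50 CPM in the OT-I mice. In the CD8 gate of the same bin it was at 132 and 111 CPM in the MHCII-/- mice and 113 and 159 CPM in the OT-I mice. This comparison within CD8-fated mice had no test.

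**Figure D3:**
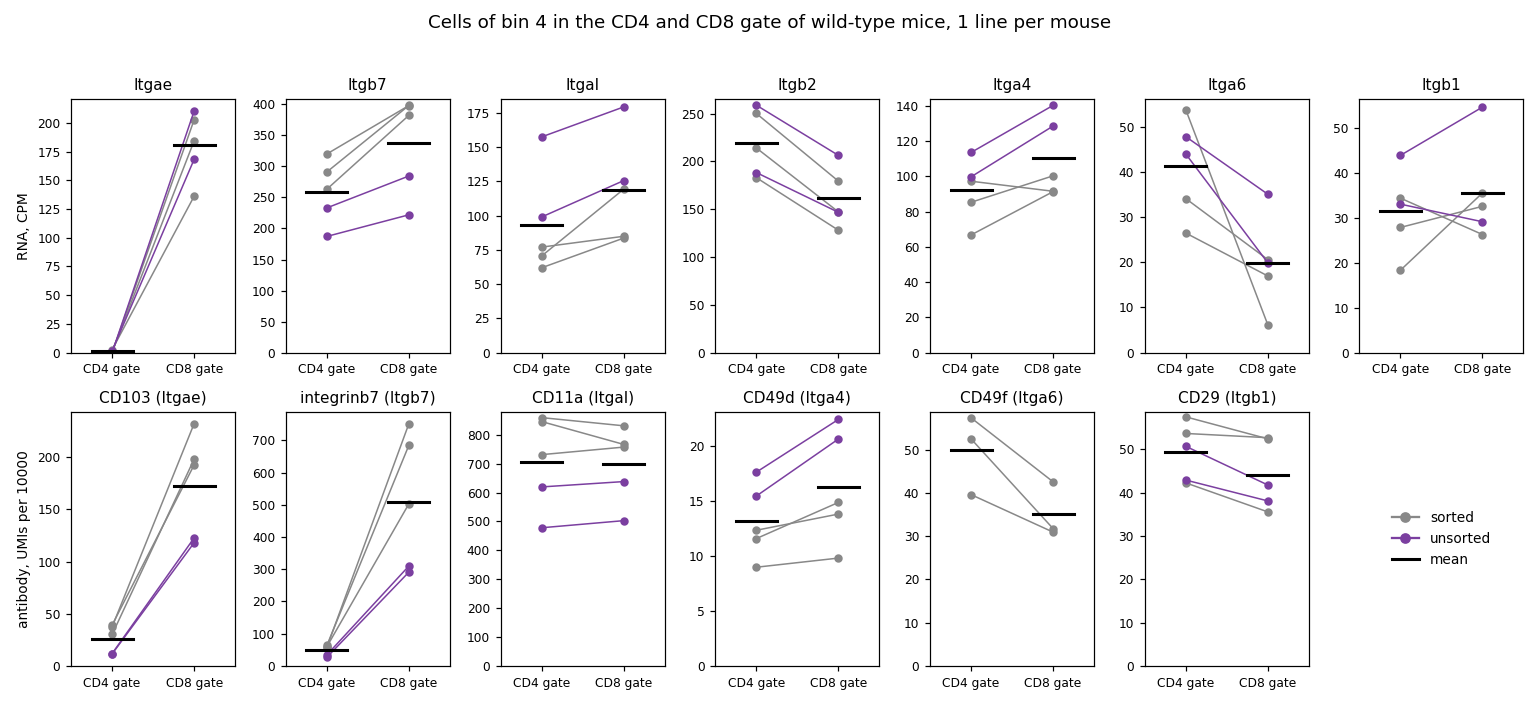
Levels of the chains and their antibodies in bin 4 of the wild-type mice, CD4 gate against CD8 gate, with 1 line per mouse (5 mice; 3 sorted mice for CD49f) and linear axes from 0 in CPM or in UMIs per 10000. Itgae runs from 0 to 2.53 CPM in the CD4 gate and from 136 to 210 CPM in the CD8 gate, and Itga6 falls in each of the 5 mice.

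Itgb7, the beta chain that joins alphaE or alpha4, rose with maturation in both lineages. Its RNA (chr15:102215994-102233405, GRCm38) went from 24.0 to 105 CPM (median 60.6) in bin 1 to 226 to 371 CPM (median 279) in bin 4 in CD4-fated mice, and from 38.9 to 181 CPM (median 55.0) to 260 to 372 CPM (median 330) in CD8-fated mice. Bins 1 and 4 did not overlap in either lineage. The rise was 2.69 (SE 0.191; edgeR, adjusted p = 2.55e-10) in CD4-fated and 2.62 (SE 0.242; edgeR, adjusted p = 1.93e-07) in CD8-fated mice. Over this change 5 of 6 tested chains passed in CD4-fated mice, 3 higher and 2 lower, where 35.5% of 8257 genes did. In CD8-fated mice 6 of 7 passed, 4 higher and 2 lower, where 38.6% of 8041 genes did.

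The lineages differed in Itgb7 RNA in bin 3. It was at 216 to 360 CPM (median 286) in CD8-fated and 141 to 234 CPM (median 182) in CD4-fated mice, a difference of 0.69 (SE 0.15; edgeR, adjusted p = 0.00996), which fell to 0.46 and lost the call (adjusted p = 0.11) under the score of the single cell. Of 7 chains 3 passed in that bin, 2 higher and 1 lower, against 8.44% of 8718 genes. In bin 4 the difference was 0.14 (SE 0.122; edgeR, adjusted p = 0.602). In bin 4 of the wild-type mice it was at 382, 398, 398, 285 and 222 CPM in the CD8 gate and 263, 320, 291, 233 and 187 CPM in the CD4 gate. The CD8 gate was higher in 5 of 5 mice, by 0.41 (SE 0.069; edgeR, adjusted p = 6.79e-06), and in bin 3 by 1.26.

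The integrinb7 antibody was higher in CD8-fated mice in bins 2, 3 and 4. In bin 4 it was at 192 and 145 per 10000 in F5, 690 and 625 in MHCII-/- and 210 and 185 in OT-I mice, against 63.7 and 47.3 in AND, 55.7 and 62.7 in MHCI-/- and 32.1 and 36.5 in OT-II mice. The groups did not overlap, and the MHCII-/- mice stood above the other CD8-fated mice. They were also the only CD8-fated mice that were sorted, so genotype and sorting cannot be told apart there. The difference between the lineages was 2.62 (SE 0.308), or 6.14-fold (edgeR, adjusted p = 8.1e-06). Within the pairs it was 2.23 in AND and F5, 3.12 in the MHC-deficient and 2.51 in the OT mice (edgeR, adjusted p = 0.631 between the pairs), and with scaling to library size 1.60, 3.47 and 2.53, which were called as different (adjusted p = 0.000735). It was 3.16 (SE 0.387; edgeR, adjusted p = 8.11e-06) in bin 3, at 86.3 to 566 (median 157) against 16.3 to 32.9 (median 25.2), and 1.48 (SE 0.221; edgeR, adjusted p = 0.00102) in bin 2, at 24.4 to 50.2 (median 33.9) against 8.58 to 26.7 (median 14.7). In the wild-type mice it was at 685, 752, 503, 291 and 310 in the CD8 gate and 63.1, 57.3, 59.3, 26.4 and 34.0 in the CD4 gate, a difference of 3.25 (SE 0.155; edgeR, adjusted p = 7.97e-12). In both gates it was higher in the sorted mice 1, 2 and 3 than in the unsorted mice 4 and 5, which are of the third experiment. From bin 1 to bin 4 it rose in both lineages, by 1.80 (SE 0.316; edgeR, adjusted p = 0.00513) in CD4-fated mice, from 7.90 to 28.7 up to 32.1 to 63.7, and by 4.23 (SE 0.554; edgeR, adjusted p = 0.00191), or 18.8-fold, in CD8-fated mice. Of the 6 antibodies 3 passed over this change in CD4-fated mice, 2 higher and 1 lower (25.2% of the panel), and 5 in CD8-fated mice, 3 higher and 2 lower (31.5%). The 5 include CD49f, which was all but uncounted in the OT-I mice.

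**Figure D4:**
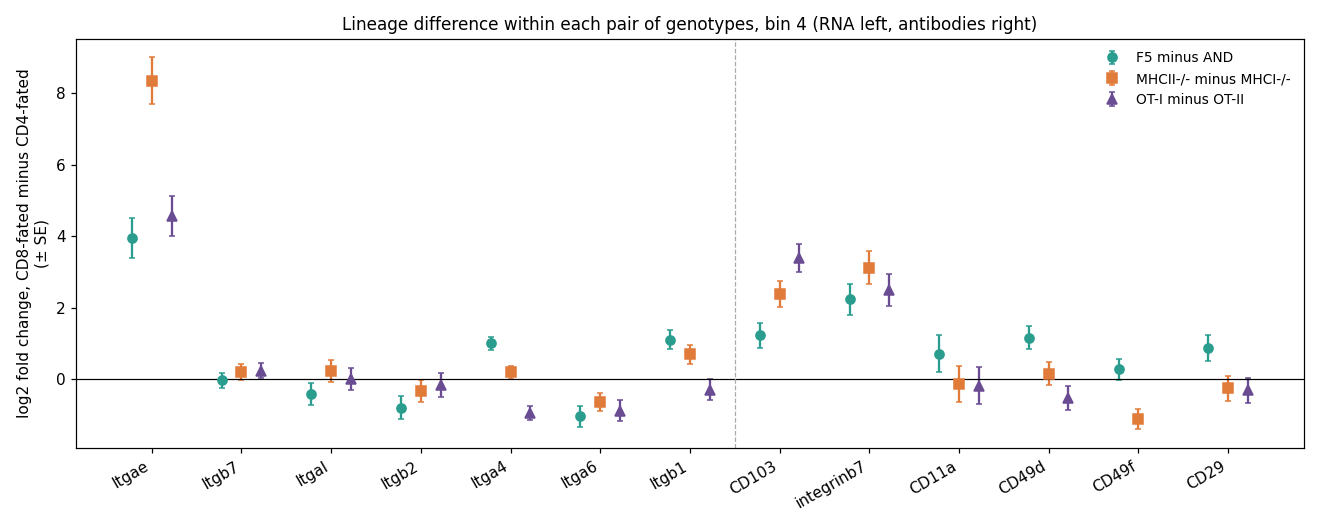
Lineage difference of each chain and antibody in bin 4 within each pair of genotypes, as the log2 fold change of CD8-fated over CD4-fated mice with its SE (2 mice against 2). Itgae and integrinb7 lie above 0 in all 3 pairs, and Itga4 runs from -0.94 in the OT mice to 1.00 in AND and F5.

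Among wild-type classes alphaE and beta7 were high together in natural killer T (NKT)-like and CD8 SP-like cells. The mean Itgae level was 140 CPM (range 56.7 to 187, n = 4 mice) in NKT-like, 114 ± 21.0 (SD, n = 5) in CD8 SP-like and 34.5 ± 3.79 (SD, n = 5) in regulatory T (Treg)-like cells. The first pair overlapped, Treg-like cells lay below both, and next came myeloid-like cells at a mean of 14.6 CPM (0 to 22.6, n = 3). CD4 SP-like cells were lowest at 0.525 ± 0.577 CPM (SD, n = 5). CD103 was at 155, 111 and 40.4 per 10000 in these 3 classes, and integrinb7 at 433, 271 and 89.1. Within mice Treg-like cells did not always come next: CD103 was higher in myeloid-like cells in each of the 3 mice that held both, at 52.3, 26.5 and 25.5 against 48.5, 23.1 and 24.8, and integrinb7 in mice 4 and 5, at 65.1 and 81.7 against 57.8 and 59.8. In gamma-delta T-like cells CD103 and integrinb7 were above Treg-like cells in mouse 5, at 32.2 and 99.1, and below them in mouse 4, at 15.8 and 46.5. Itgb7 RNA was alike within its spread in CD8 SP-like (240 CPM), mature SP-like (233), interferon-like (231), NKT-like (216) and Treg-like cells (211), then 98.9 CPM in myeloid-like and 67.6 CPM in CD4 SP-like cells. Mature SP-like cells had Itgb7 RNA at 159.8 to 302 CPM, which overlapped the 171.2 to 296 CPM of CD8 SP-like cells, but integrinb7 at 26.6 to 52.5 per 10000 against 141 to 400. Mature SP-like cells numbered 245 to 984 per CD4-fated mouse, against 1 to 9 in F5 and MHCII-/- and 97 and 151 in OT-I mice. CD4 SP-like cells also came from MHCII-/- (196 and 304) and OT-I mice (338 and 347). Wild-type CD4-gate cells of bin 4 had Itgb7 RNA at 187 to 320 CPM, so the CD4 SP-like class does not stand for mature CD4 cells. These RNA levels of clusters had no test. The antibodies of Treg-like cells were tested against mature CD4-gate cells of the same mice: CD103 was higher by 0.58 (SE 0.146; edgeR, adjusted p = 0.00859) and integrinb7 by 0.73 (SE 0.128; edgeR, adjusted p = 0.000727), both in 5 of 5 mice. There 3 of 6 antibodies passed, 2 higher and 1 lower, against 35.1% of the panel, and without the third experiment integrinb7 kept its value (0.75) and lost its call (adjusted p = 0.0599).

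**Figure D5:**
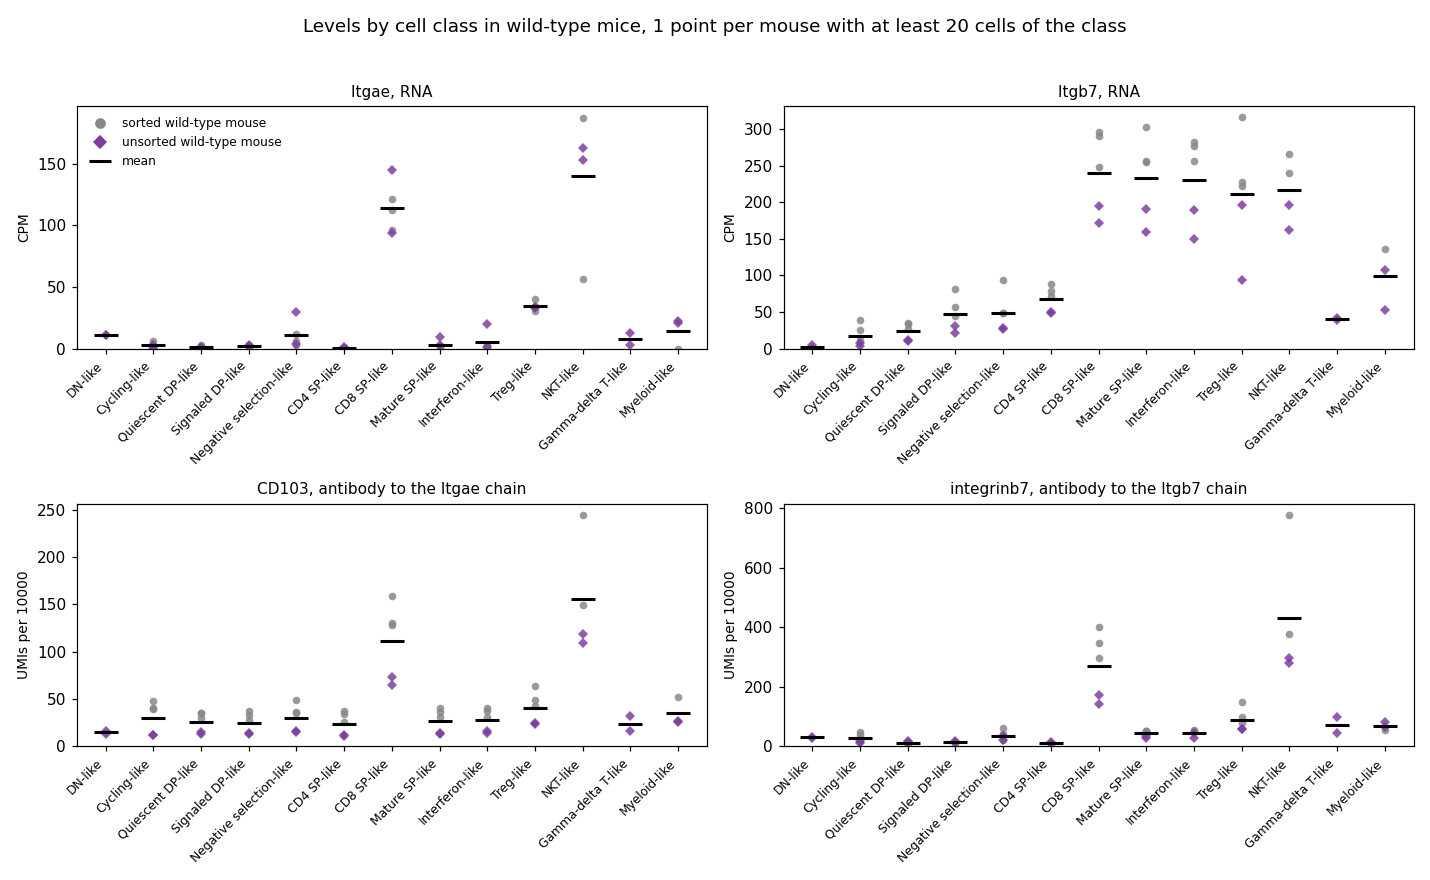
Itgae and Itgb7 in CPM, and CD103 and integrinb7 in UMIs per 10000, in the classes of wild-type cells, with 1 point per mouse holding at least 20 cells of the class, the mean as a bar and linear axes from 0. NKT-like and CD8 SP-like cells lead in Itgae, CD103 and integrinb7, while Itgb7 is also high in mature SP-like and interferon-like cells.

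Cells of the Treg-like cluster differed between the MHC-deficient genotypes, and whether the name holds for those of MHCII-/- mice was not tested. Itgae was at 152 and 125 CPM in the 2 MHCII-/- mice, at 21.2 and 9.41 CPM in both MHCI-/- mice, and at 30.4 to 40.6 CPM in the 5 wild-type mice. CD103 was at 139 and 120 against 43.7 and 39.4 per 10000, and integrinb7 at 520 and 406 against 112 and 102. All 3 were higher in both MHCII-/- mice, which had 60 and 67 such cells, than in both MHCI-/- mice, which had 188 and 177, and the difference had no test. In the CD8 gate of bin 4 the MHCII-/- mice had Itgae at 156 and 137 CPM, CD103 at 221 and 209 and integrinb7 at 695 and 636 per 10000. The 9 B cell genes led by Ighm summed to 435 to 459 CPM in Treg-like cells of MHCII-/- mice. They summed to 146 to 162 CPM in those of MHCI-/- and 120 to 198 CPM in those of wild-type mice.

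AlphaL and beta2 are the chains of LFA-1. Itgal (chr7:127296139-127335137, GRCm38) fell with maturation from 158 to 358 CPM (median 211) to 74.9 to 186 CPM (median 112) in CD4-fated mice and from 126 to 353 CPM (median 172) to 75.3 to 218 CPM (median 108) in CD8-fated mice. The ranges of bins 1 and 4 overlapped in both lineages, and within mice it fell by 0.67 (SE 0.104; edgeR, adjusted p = 2.13e-05) and by 0.45 (SE 0.083; edgeR, adjusted p = 0.000383). Between the lineages Itgal differed by -0.05 in bin 4, and by -0.52 (adjusted p = 0.067) in bin 3, where it was called with DESeq2 (-0.52), without the third experiment (-0.66), with mice of one number as a block (-0.53, adjusted p = 0.0132), without OT-II mouse 1 (-0.62) and without OT-I mouse 2 (-0.64). In wild-type mice it was at 119.2, 84.9, 83.5, 125 and 179 CPM in the CD8 gate of bin 4 and 70.5, 77.0, 61.9, 98.9 and 157 CPM in the CD4 gate. It was higher in the CD8 gate there by 0.36 (SE 0.103; edgeR, adjusted p = 0.00768) and lower in bin 3 by -0.38 (edgeR, adjusted p = 0.00138), so the direction turned between neighbouring bins. CD11a, its antibody, was not called between the lineages (0.14 in bin 4), and differed by -0.13 between the wild-type gates in bin 4 and by -0.54 in bin 3 (edgeR, adjusted p = 0.00396).

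CD11a was highest in bin 2, at 864 to 1497 per 10000 (median 1099) in CD4-fated mice and 763 to 1430 (median 1274) in CD8-fated mice. Against quiescent DP-like cells of the same wild-type mice, at 352 to 839, signaled DP-like cells were at 428 to 1031, a rise of 0.45 (SE 0.084; edgeR, adjusted p = 0.000846) in which 2 of 6 antibodies passed, both higher, where 28.8% of the panel did in either direction and 22.5% were higher. The other was integrinb7, at 0.33 (SE 0.072; edgeR, adjusted p = 0.00241), which fell to 0.17 and lost its call with scaling to library size. Over wild-type classes CD11a was highest in NKT-like (1183), CD4 SP-like (1062) and CD8 SP-like cells (897), which overlapped, and lowest in double-negative (DN)-like cells (140).

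Itgb2 (chr10:77530329-77565708, GRCm38) was lower in CD8-lineage cells. In wild-type mice 1 to 5 it was at 180, 147, 128, 147 and 206 CPM in the CD8 gate and 250, 214, 183, 188 and 259 CPM in the CD4 gate. It was lower in the CD8 gate in each mouse, by -0.43 (SE 0.081; edgeR, adjusted p = 4.86e-05). Between the lineage-restricted mice in bin 3 it was at 143 to 254 CPM (median 168) in CD8-fated and 178 to 307 CPM (median 291) in CD4-fated mice, a difference of -0.62 (SE 0.182; edgeR, adjusted p = 0.0488) close to the threshold. That call held without OT-II mouse 1 or OT-I mouse 2 and was lost without any one of the other 10 mice (-0.62 to -0.55, adjusted p 0.0664 to 0.131). In bin 4 the difference was -0.43 (adjusted p = 0.208), called without the third experiment (-0.54), with mice of one number as a block (-0.44, adjusted p = 0.0195) and without OT-I mouse 2 (-0.57). Its change over maturation was 0.17 in CD4-fated mice and -0.17 in the CD8-fated, neither called. With scaling to library size, which moved the median of all genes over this change from -0.03 to -0.34 in CD4-fated and from -0.01 to -0.33 in CD8-fated mice, Itgb2 fell by 0.48 in CD8-fated mice.

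Itga4, which pairs with beta1 or beta7, rose late. Its RNA (chr2:79255426-79333114, GRCm38) was at 36.8 to 53.4 CPM (median 42.2) in bin 1, 22.4 to 35.3 CPM (median 28.0) in bin 2 and 60.4 to 128 CPM (median 71.5) in bin 4 in CD4-fated mice. In CD8-fated mice it went from 29.2 to 58.9 CPM (median 40.4) through 19.0 to 42.6 CPM (median 30.5) to 59.3 to 146 CPM (median 80.3). Within mice bin 4 was above bin 1 by 1.26 (SE 0.157; edgeR, adjusted p = 1.23e-06) and by 1.47 (SE 0.118; edgeR, adjusted p = 3.21e-08). CD49d rose by 0.46 (SE 0.119; edgeR, adjusted p = 0.0281) in CD4-fated mice, from 6.95 to 14.8 up to 8.34 to 18.5 per 10000, levels near the panel median of wild-type mice (7.12 to 9.94 in bin 1), and by 0.47 (SE 0.072; edgeR, adjusted p = 0.00325) in CD8-fated mice, from 7.55 to 14.1 up to 11.9 to 22.1. The first of these calls was lost with scaling to library size (0.34), without the third experiment (0.22) and without AND mouse 1, MHCI-/- mouse 2, OT-II mouse 1 or OT-II mouse 2 (0.26 to 0.39). The second was lost without F5 mouse 2 (0.43).

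Itga4, Itga6 and Itgb7 were each higher in bin 4 than in bin 1 in both lineages, and the promoters of Itga4 and Itgb7 are shown for this shared rise. The bases from 250 before to 50 after the start, from RefSeq on GRCm38.p6, are at chr2:79255176-79255475 on the plus strand for Itga4 and at chr15:102231886-102232185 on the minus strand for Itgb7. The latter window lies inside the annotated span of the gene. Capitals mark CACCC or, for the other strand, GGGTG, the letters that factors of the Klf family are known to bind.
Itga4: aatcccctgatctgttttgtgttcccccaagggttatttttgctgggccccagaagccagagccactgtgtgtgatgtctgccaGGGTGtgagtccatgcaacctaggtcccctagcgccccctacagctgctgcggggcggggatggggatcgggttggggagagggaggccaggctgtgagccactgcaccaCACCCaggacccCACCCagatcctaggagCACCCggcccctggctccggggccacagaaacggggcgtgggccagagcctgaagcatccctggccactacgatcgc
Itgb7: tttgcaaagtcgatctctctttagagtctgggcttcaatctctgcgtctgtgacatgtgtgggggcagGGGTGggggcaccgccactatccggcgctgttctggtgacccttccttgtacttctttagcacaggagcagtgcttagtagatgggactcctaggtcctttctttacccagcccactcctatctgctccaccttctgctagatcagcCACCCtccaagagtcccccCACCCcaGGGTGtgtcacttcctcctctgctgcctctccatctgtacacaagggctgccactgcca
Each window held 4 matches. Such a match was in 57.5% of 32851 promoters of the same length, and in those of all 3 chains with an entry (Itga4, Itgb1 and Itgb7). The core TGTGGT known for Runx factors, searched on both strands (read as ACCACA on the other), was in that of Itga4 alone among the 3 and in 16.8% of all promoters.

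Between the lineages Itga4 depended on the genotypes. In bin 4 it was at 130 to 146 CPM in F5 against 60.4 to 67.7 CPM in AND mice, at 73.3 to 87.4 CPM in MHCII-/- against 70.3 to 72.6 CPM in MHCI-/- mice and at 59.3 to 65.6 CPM in OT-I against 109 to 128 CPM in OT-II mice. F5 mice were above AND mice and OT-I mice below OT-II mice. The differences were 1.00 (adjusted p = 0.00808), 0.20 (adjusted p = 0.738) and -0.94 (adjusted p = 0.0318), and differed between the pairs (edgeR, adjusted p = 0.0118). CD49d gave 1.17 in AND and F5, 0.15 in the MHC-deficient and -0.52 in the OT mice (edgeR, adjusted p = 0.0263 between the pairs). With scaling to library size the values of CD49d were 0.47, 0.51 and -0.49, and their difference was not called (adjusted p = 0.223), while that of Itga4 was (adjusted p = 0.0127), with the call within the OT mice lost (-0.94, adjusted p = 0.0503). Over all pairs the difference of Itga4 was 0.13 (edgeR, adjusted p = 0.836).

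Gamma-delta T-like and DN-like cells led the wild-type classes in alpha4. Itga4 was at 193 and 374 CPM in gamma-delta T-like and 236 and 321 CPM in DN-like cells of the 2 unsorted mice, which overlapped. It was at 122 ± 23.5 CPM (SD, n = 5) in Treg-like cells and lowest in CD4 SP-like cells, at 42.7 ± 10.4 CPM (SD, n = 5). In the CD4 gate of bin 4 the wild-type mice were at 66.7 to 114 CPM. CD49d was at 141 and 143 per 10000 in DN-like and 83.2 and 104 in gamma-delta T-like cells, against 3.49 to 8.90 in CD4 SP-like cells. Treg-like cells had more Itga4 RNA than mature SP-like cells in the means (122 against 77.6 CPM), with CD49d alike (11.6 against 11.8 per 10000). Against mature CD4-gate cells CD49d was lower in Treg-like cells, by -0.34 (SE 0.104, edgeR, adjusted p = 0.0269). Its level per 10000 was lower in wild-type mice 1, 2, 3 and 5 and higher in mouse 4 (15.8 against 15.5). The call for CD49d was lost with scaling to library size (-0.19), without the third experiment (-0.31) and without wild-type mouse 1, 2, 3 or 5 (-0.35 to -0.28).

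Itga6, a laminin-binding alpha chain, was lower in the mature CD8 lineage. Its RNA (chr2:71786886-71858427, GRCm38) was at 13.2 to 21.4 CPM (median 18.6) in CD8-fated and 26.1 to 35.0 CPM (median 31.9) in CD4-fated mice in bin 4. The groups did not overlap, and the difference was -0.82 (SE 0.158; edgeR, adjusted p = 0.00391). In wild-type mice 1 to 5 it was at 6.19, 16.97, 20.6, 19.9 and 35.1 CPM in the CD8 gate and 53.8, 26.5, 34.1, 44.0 and 47.8 CPM in the CD4 gate. It was lower in the CD8 gate in each mouse, by -1.0 (SE 0.22; edgeR, adjusted p = 0.000463), and differed by 0.02 in bin 3. From bin 1, at 11.2 to 21.0 CPM (median 13.4), it rose by 1.49 (SE 0.182; edgeR, adjusted p = 8.96e-07) in CD4-fated mice, and from 8.95 to 19.3 CPM (median 13.5) by 0.94 (SE 0.212; edgeR, adjusted p = 0.00197) in CD8-fated mice, or by 0.58 with scaling to library size. Among wild-type classes Itga6 was high in quiescent DP-like (45.8 CPM), Treg-like (42.1) and mature SP-like cells (35.4), which overlapped.

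CD49f was all but uncounted in the third experiment, at 94 to 270 UMIs per lane against 34821 to 186097 in the 11 lanes of the others, so its levels are given for those alone. There it went the other way from its RNA over maturation: bin 1 was at 83.3 ± 19.7 per 10000 (SD, n = 4) in CD4-fated and 71.1 ± 4.82 (SD, n = 4) in CD8-fated mice, and bin 4 at 57.7 ± 11.8 and 36.5 ± 2.28. In bin 4 CD8-fated mice, at 34.6 to 39.6, lay below all CD4-fated mice, at 41.6 to 69.0. Without the third experiment CD49f fell within mice by 0.65 in CD4-fated (edgeR, adjusted p = 0.00887) and by 1.20 in CD8-fated mice. In the fit over all mice these changes were -0.34 (adjusted p = 0.299) and -1.01 (adjusted p = 0.00511). Between the wild-type gates the difference was -0.72 over all 5 mice (edgeR, adjusted p = 0.00467) and -0.63 in the 3 sorted mice, and was lost with DESeq2 (-0.92), with scaling to library size (-0.55) and without wild-type mouse 1 (-0.66). Between the lineages in bin 4 it was -1.11 in the MHC-deficient mice and 0.28 (adjusted p = 0.662) in AND and F5, and the difference between pairs (edgeR, adjusted p = 0.0433) includes the OT mice, where the antibody was uncounted. With scaling to library size, as in the levels per 10000, it was -0.75 and -0.57, so the direction in AND and F5 turned with the scaling, and the pairs were not called as different (adjusted p = 0.423).

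Itgb1, the beta chain shared by alpha4 and alpha6, fell with maturation. Its RNA (chr8:128685654-128733579, GRCm38) went from 67.8 to 103 CPM (median 78.1) to 22.2 to 47.1 CPM (median 23.6) in CD4-fated mice, which did not overlap, and from 40.9 to 89.4 CPM (median 74.0) to 27.9 to 54.2 CPM (median 43.9) in CD8-fated mice. The fall was 1.19 on the log2 scale (-1.19, SE 0.148; edgeR, adjusted p = 1.14e-06) in CD4-fated mice. It was -0.57 (SE 0.146; edgeR, adjusted p = 0.00533) in CD8-fated mice, where the call was lost without MHCII-/- mouse 2 (-0.36) and the value was -0.87 with scaling to library size. CD29 fell likewise, by -0.59 (SE 0.12; edgeR, adjusted p = 0.0108) in CD4-fated mice, from 50.4 to 108 per 10000 to 45.6 to 55.6, and by -0.64 (SE 0.179; edgeR, adjusted p = 0.0314) in CD8-fated mice, from 48.6 to 97.8 to 38.5 to 65.4. The CD8-fated call was lost under the score of the single cell (-0.45), with interferon-like cells in the order (-0.55) and without F5 mouse 1, F5 mouse 2, MHCII-/- mouse 1, MHCII-/- mouse 2 or OT-I mouse 2 (-0.70 to -0.54).

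Neither Itgb1 nor CD29 was called between the lineages over all pairs of genotypes. In bin 4 Itgb1 was at 27.9 to 54.2 CPM in CD8-fated and 22.2 to 47.1 CPM in CD4-fated mice, at 0.55 (edgeR, adjusted p = 0.138), and was called without the third experiment (0.89) and without OT-I mouse 1 (0.72). Within the pairs it was 1.11 (adjusted p = 0.0523) in AND and F5, 0.70 in the MHC-deficient and -0.29 in the OT mice, and with scaling to library size the first was called (1.22, adjusted p = 0.028). These were not called as different between the pairs (edgeR, adjusted p = 0.451, or 0.33 with library size). Between the wild-type gates Itgb1 differed by 0.14 in bin 4 and by -0.50 (edgeR, adjusted p = 0.00774) in bin 3. CD29 differed by -0.30 there (edgeR, adjusted p = 0.0931), and was called in bin 3 (-0.49) and at a gate ratio of 8 (-0.33). Over wild-type classes CD29 was highest in DN-like cells, at 342 and 399 per 10000, then in gamma-delta T-like (208 and 220) and cycling-like cells (181 ± 35.0, SD, n = 5). Its mean was lowest in mature SP-like cells (54.1 ± 8.98, SD, n = 5), which overlapped interferon-like (55.3), CD8 SP-like (55.3) and Treg-like cells (56.4).

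Other genes of integrin function were counted from a list of 50: 24 that act in integrin activation, 8 ligands and 18 other chains. In bin 4 26 could be tested between the lineages. Icam1, the LFA-1 ligand ICAM-1, was higher in CD8-fated mice, at a mean of 26.2 against 3.67 CPM (2.72, SE 0.206; edgeR, adjusted p = 4.4e-07), and Itgb3, the beta3 chain, was lower at 29.9 against 77.9 CPM (-1.73, SE 0.263; edgeR, adjusted p = 0.000585). No other gene of the list passed, so 2 of 26 were called where 7.32% of all genes were, and the median over the 26 was 0.05. In bin 3 (8.44% of all genes) 1 was higher (Icam1, 1.63) and 2 were lower (Itgb3, -1.62, and Cytip, -0.64, a cytohesin-binding adaptor), and in bin 2 (2.19%) Icam1 (0.91) was higher and Cytip (-0.89) lower. None of the list passed in bin 1 or in quiescent DP-like cells. The antibody to ICAM-1, CD54, was higher in CD8-fated mice in bin 4 (1.34, SE 0.209; edgeR, adjusted p = 0.000146). Its mean was 26.3 per 10000 in CD8-fated and 9.20 in CD4-fated mice. The groups overlapped, with CD8-fated mice at 6.42 to 45.9. The CD4-fated mean lay in the range of the panel median of wild-type mice in that bin (8.36 to 11.4).

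In the wild-type gates 24 of the list were tested, and 2 were higher in the CD8 gate (the talin gene Tln1, 0.35, and Dock2, 0.29) and 5 lower, where 19.7% of all genes were called. The lower ones were led by Itgb3 (-2.57, SE 0.215, at 9.50 against 56.5 CPM; edgeR, adjusted p = 7.21e-14), Cytip (-0.84) and Rasgrp1 (-0.53), an exchange factor of Ras. Over maturation 8 of 26 rose and 7 fell in CD4-fated mice, and 10 rose and 6 fell in CD8-fated mice, where 35.5% and 38.6% of all genes were called in either direction. Rasgrp2, an exchange factor of the integrin activator Rap1, rose in both, by 2.63 in CD4-fated mice, from 71.6 to 348 CPM in the means (edgeR, adjusted p = 1.97e-11), and by 2.28 in CD8-fated mice. Rap1a, which encodes a form of Rap1, fell in both, by -0.85 and -0.87. Icam1 fell by -1.15 in CD4-fated (edgeR, adjusted p = 0.00427) and rose by 1.18 in CD8-fated mice (edgeR, adjusted p = 3.78e-05). Itgb3 rose in both, by 3.00 in CD4-fated mice and 0.93 in the CD8-fated. Of the other ligand antibodies, CD102 (ICAM-2, which binds LFA-1) fell from bin 1 to bin 4 in both lineages, by -0.93 (edgeR, adjusted p = 0.00017) in CD4-fated and -0.99 (edgeR, adjusted p = 0.00509) in CD8-fated mice. CD106 (VCAM-1, which binds alpha4beta1) passed in CD8-fated mice at -0.25 (edgeR, adjusted p = 0.0283), with a mean of 4.82 against 5.21 per 10000, but its level per 10000 was higher in bin 4 in 3 of 6 mice and lay below the panel median of wild-type mice in that bin (8.36 to 11.4). CD54 rose there by 0.50 (edgeR, adjusted p = 0.04), and was higher in the CD8 than in the CD4 gate by 1.61 (edgeR, adjusted p = 3.63e-09), in Treg-like than in mature CD4-gate cells by 1.77 (edgeR, adjusted p = 3.17e-07) and in signaled than in quiescent DP-like cells by 0.39 (edgeR, adjusted p = 0.000529). MAdCAM-1, a ligand of alpha4beta7, was called in none of these comparisons.

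Across 11 wild-type classes, the gene whose log2 level was most like that of Itgae among 5946 genes was Nkg7 (Pearson's r = 0.950), followed by AW112010 (0.901) and Tpst2 (0.883). For Itgb7 these were Pik3cd (0.981), Stk10 (0.967) and Gm4955 (0.961), for Itgal Dcaf5 (0.899), Clk2 (0.890) and Laptm5 (0.886), and for Itgb2 Gmip (0.948), Gng2 (0.934) and Parp3 (0.932). For Itga4 they were Gabarap (0.860), Mxd1 (0.858) and Ints3 (0.856), for Itga6 Stk38 (0.895), Nudt14 (0.890) and Whsc1l1 (0.867), and for Itgb1 Wdr82 (0.920), Fbxo22 (0.899) and Lamtor4 (0.892). The values of a class share their libraries and depth, and these genes are a description. Between the RNA of a chain and its antibody over 14 wild-type classes, r of log2 levels was 0.739 for Itgae and CD103, 0.520 for Itgb7 and integrinb7, 0.727 for Itgal and CD11a, 0.878 for Itga4 and CD49d and 0.735 for Itgb1 and CD29, again as a description. CD49f is left out, since 3 of the classes come from the third experiment alone.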

How the data were processed

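RNA and antibody tags were counted in 19 lanes from 17 mice. The authors deposited raw UMI counts per gene, antibody and barcode for each lane, made with Cell Ranger 3.1.0 on mm10, without normalization. The 2 pooled matrices that repeat the lanes were not used. Cells had at most 15% mitochondrial UMIs, at least 200 genes, 1000 to 10000 antibody UMIs and at least 70 antibodies detected, as in the study, and 72054 passed. Doublets were called per lane at 0.8% per 1000 barcodes, and 3071 of these cells were removed. Lanes held 9893333 to 43303999 RNA and 4484116 to 34762051 antibody UMIs. Counts limit precision, and the sums tested held 59329 to 16537064 RNA and 88051 to 22012612 antibody UMIs.

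Clustering used Python 3.11.15, scikit-learn 1.9.0 and leidenalg 0.10.2 (2000 variable genes, 30 principal components corrected over 4 batches by the Harmony procedure, 20 neighbours, resolution 1.5). The thresholds for naming clusters were set after seeing the data. UMIs were summed per mouse with at least 20 cells, which made each mouse 1 replicate, and tested with edgeR 4.0.16 (limma 3.58.1, R 4.3.3), with the pair of genotypes as a covariate or the mouse as a block. Each SE is the size of the log2 fold change over the square root of F. On simulated counts the comparison in bin 4 recovered 71% of 2-fold and 99% of 4-fold changes over 8581 genes. The chains were always named, with the 3 list genes of largest change in each direction and the 3 genes most like each chain. The chains, lists and tests were chosen with earlier results of these data known. Alternatives were DESeq2 1.42.0, other scaling, filters, gates, blocks and orders, doublets kept and each mouse left out; leaving out the third experiment, keeping interferon-like cells in the order and library-size scaling between the pairs of genotypes were added after seeing the data.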

Additional observations from a re-analysis of the deposited data

Results flagged for a closer look

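Single mice stood apart from the other 5 of their lineage group, or from the other 4 wild-type mice, in 16 of 195 groups of mice checked by Dixon's test, where chance gives about 1 in 20. Itgae in quiescent DP-like cells was at 2.46 CPM in MHCI-/- mouse 1 and 0 in the other CD4-fated mice, and at 16.9 CPM in OT-I mouse 2 against 0 to 4.02 CPM. In bin 1 it was at 0.539 CPM in MHCI-/- mouse 2 and 0 in the other CD4-fated mice. Both of these CD4-fated values rest on 1 UMI. With all other mice at 0, any single UMI is flagged, so these flags were fixed in advance. Itgb7 in bin 2 was at 192.5 CPM in F5 mouse 2 against 80.9 to 123 CPM.

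OT-I mouse 2 was high in the RNA of the chains of LFA-1. Its Itgal level was 353 CPM in bin 1 (126 to 206 in the others), 220.4 CPM in bin 3 (90.4 to 137) and 217.5 CPM in bin 4 (75.3 to 121), and its Itgb2 level was 254 CPM in bin 3 (143 to 180). Wild-type mouse 5, of the same experiment and of lower depth, had Itgal at 292 CPM in signaled DP-like cells (144 to 186) and Itgb1 at 121 CPM in Treg-like cells (39.2 to 62.8). In bin 3 Itga4 was at 74.1 CPM in OT-II mouse 1 (31.8 to 44.5).

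F5 mouse 1 had the highest CD49d of the CD8-fated mice at each stage, at 25.7 per 10000 in quiescent DP-like cells (9.04 to 12.4 in the others), 14.1 in bin 1 (7.55 to 9.93), 10.8 in bin 2 (5.16 to 6.87), 17.1 in bin 3 (8.08 to 9.22) and 22.1 in bin 4 (11.9 to 13.5). It was the only CD8-fated mouse of the first experiment, so mouse and experiment cannot be told apart. Its stages come from 1 mouse and are not independent flags.

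The lineage difference in bin 4 differed between the pairs of genotypes for Itga4 (edgeR, adjusted p = 0.0118), CD103 (adjusted p = 0.00799), CD49d (adjusted p = 0.0263) and CD49f (adjusted p = 0.0433). With scaling to library size, CD49d (adjusted p = 0.223) and CD49f (adjusted p = 0.423) were not called and integrinb7 was (adjusted p = 0.000735). For CD49f the OT mice have no usable value.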

How the results depend on the processing

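Of the 43 chain or antibody values that passed the test, 22 kept their call and direction under every alternative run. Over the 651 alternatives of the 43, 71 lost the threshold and 2 turned in direction. A further 19 values passed under some other setting only. Low counts kept Itgae out of the tests between the lineages in quiescent DP-like cells and bins 1 and 2 and over maturation in CD4-fated mice. With no filter it rose from bin 1 to bin 4 in CD4-fated mice by 3.33 (SE 1.175, edgeR, adjusted p = 0.0233). That rise rests on 26 against 1 UMIs, where 22.3% of genes were called, and its p-value is not comparable with those of the filtered fits. CD49f has no depth in the third experiment.

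Genes called between the lineages in quiescent DP-like cells numbered 0, against 8 with DESeq2, 64 with no filter, 8 with the replicate block, 48 without the third experiment and 0 to 8 with a mouse left out. In bin 1 they were 5, against 13, 84, 2 with no pairs of genotypes, 12 with the single-cell score, 59 without the third experiment and 4 to 10 with a mouse left out. In bin 2 they were 176, against 364 with DESeq2, 520 with no filter, 90 with no pairs of genotypes, 338 with the replicate block, 839 without the third experiment and 106 to 282 with a mouse left out. In bin 3 they were 736, against 1122, 1488 and 277 under the first 3 of these and 411 to 942 with a mouse left out. In bin 4 they were 628, against 944, 1099, 306, 1052 with the replicate block, 1136 without the third experiment and 376 to 813 with a mouse left out. Chains called were 1 with no filter in bin 1, against 0. In bin 2 they were 1 with no filter or the single-cell score, 2 without the third experiment and 0 to 1 with a mouse left out, against 0. In bin 3 they were 1 with the single-cell score and 5 without the third experiment, against 3, and in bin 4 5 without the third experiment, against 2.

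Antibodies called in quiescent DP-like cells were 0, against 2 with DESeq2 and 0 to 2 with a mouse left out. In bin 2 they were 4, against 11 with DESeq2, 7 with library size or without the third experiment, 2 with the replicate block and 3 to 7 with a mouse left out. The integrin antibodies among them were 2, against 1 with library size, with no pairs of genotypes, with the replicate block or without the third experiment, and 1 to 2 with a mouse left out. In bin 3 DESeq2 called 23 antibodies against 12, and in bin 4 20 against 12, with 6 without the third experiment.

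Between the wild-type gates 1280 genes and 5 chains were called, against 830 genes with DESeq2, 228 genes and 1 chain with no replicate block, and 2101 genes in bin 3. Of antibodies 22 were called, 3 of them integrins, against 35 with DESeq2, 9 with no replicate block, 36 at a gate ratio of 8, and 41, 6 of them integrins, in bin 3. Over maturation 2932 genes were called in CD4-fated mice, against 4498 with library size and 1550 with no replicate block, and 3105 in CD8-fated mice, against 1324 with no replicate block. The antibodies were 28 (3 integrins) in CD4-fated mice, against 10 (1) with no replicate block. In CD8-fated mice they were 35 (5), against 11 (2) with no replicate block, 21 (3) with the single-cell score, 18 without the third experiment, and 21 to 35 (3 to 5) with a mouse left out. In Treg-like cells they were 39 (3), against 77 with DESeq2, 15 (0) with no replicate block and 1 integrin without the third experiment. In signaled DP-like cells they were 32 (2), against 5 integrins with DESeq2, 55 (4) with library size and 2 (0) with no replicate block. The causes of these moves were not tested.

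The replicate block between the lineages pairs mice of one number. Deviations of same-numbered mice correlated at 0.009 to 0.527 for RNA (7 of 15 above 0.1) and at -0.089 to 0.466 for antibodies (6 of 15 above 0.1). In AND and F5 the number is also the experiment, and their antibodies correlated at 0.366 to 0.466. In the other pairs of genotypes the labels give only a number, and the highest RNA correlations were in the OT mice (0.274 to 0.527). Under that block Itgb2 in bin 4 (-0.44, adjusted p = 0.0195) and Itgal in bin 3 (-0.53, adjusted p = 0.0132) passed, and CD103 in bin 2 (0.77, adjusted p = 0.0863) did not.

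Directions turned for Itga4 between the lineages in bin 3 with the single-cell score (-0.087) and in bin 4 without AND mouse 1 (-0.007), AND mouse 2 (-0.014) or F5 mouse 1 (-0.002), with a range of -0.014 to 0.297 over the mice left out. They turned for Itgal (-0.38), Itga6 (0.024) and Itgb1 (-0.50) between the wild-type gates in bin 3, and for Itgb1 without wild-type mouse 3 (-0.079; up to 0.374 without mouse 2). They also turned for CD11a in Treg-like cells with DESeq2 (-0.020) and without wild-type mouse 5 (-0.003; up to 0.114 without mouse 4), and for CD49f in signaled DP-like cells without wild-type mouse 3 (0.029; down to -0.117 without mouse 2). Of these, Itgal and Itga6 were called. A further 50 values passed under no setting, and their sign turned in 91 of 956 alternatives.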

Other observations

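Itgae in the cluster of gamma-delta T-like cells varied between genotypes. AND and F5 mice lack Rag1, so the name does not hold for their cells of this cluster. OT-I mice had 624 and 740 and OT-II mice 262 and 131 cells in it, against 20 and 25 in wild-type mice 4 and 5. Whether the name holds in the OT mice was not tested. Itgae was at 117 and 32.0 CPM in AND, 71.4 and 106 CPM in OT-I and 30.6 and 36.0 CPM in OT-II mice. It was at 2.64 and 12.9 CPM in wild-type mice 4 and 5, 11.5 and 13.7 CPM in MHCII-/- mice and 3.59 CPM in F5 mouse 2. The integrinb7 antibody on the same cells was at 717 and 214 per 10000 in AND and 209 and 206 in OT-I mice, against 72.1 and 68.3 in OT-II, 96.8 and 127 in MHCII-/- and 46.5 and 99.1 in wild-type mice and 41.2 in F5 mouse 2. These groups of 1 or 2 mice had no test.

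CD4-gate cells of OT-I mice in bin 4, 72 and 68 cells, had Itgae at 9.25 and 16.6 CPM and CD103 at 5.57 and 13.8 per 10000, while the CD8 gate of the same mice was at 126 and 184 CPM and at 122 and 108 per 10000.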
